A study of Mus musculus with 9 samples.

Results

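The genes described here are those of hemoglobin and of the red cell lineage, measured by RNA-seq in mesenchymal stromal cells (MSCs) sorted from mouse bone marrow. They were chosen by symbol, with earlier results of these data known: the alpha globins Hba-a1 and Hba-a2, the beta globins Hbb-bs and Hbb-bt, the heme enzyme Alas2, the transcription factor Klf1, the membrane transporter Slc4a1 and the carbonic anhydrases Car1 and Car2. Of these 9 genes, 8 were among the 30579 genes of the deposited table, and Hbb-bs was not analysed here. Of the 8, 7 were tested, among 11988 genes that reached 1 FPKM (fragments per kilobase of exon and per 1e+06 mapped fragments) in at least 3 of 9 libraries. Slc4a1 reached 1 FPKM in 1 library and is given by its values only.

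Red cell precursors mature in the marrow while attached to macrophages and surrounded by stromal cells, and they fill with hemoglobin before they lose the nucleus. Adult hemoglobin joins alpha chains with beta chains around heme, whose synthesis in these cells starts with the erythroid enzyme Alas2. The zinc finger factor Klf1 acts on the adult beta globin gene and on many other erythroid genes, often together with Gata1. Mature red cells carry the anion exchanger Slc4a1 in their membrane and carbonic anhydrases in their cytoplasm, where both serve carbon dioxide transport. Globin transcripts are among the most abundant in whole marrow.

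The study compared 3 groups of 3 libraries each: control mice aged 3 months (young control), control mice aged 18 months (aged control), and mice aged 18 months labelled as Thbs1 knockouts, which lack by their label the matrix protein thrombospondin-1. The labels do not give the strain, the sex, the knockout allele or the markers used for sorting. Every mouse had received an antibody to VE-cadherin, an endothelial surface protein, in the bloodstream 10 minutes before death, and MSCs were sorted from long bones. Whether each library is a mouse of its own is not in the labels, and p-values accordingly reflect library-to-library spread, which may be technical.

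The spacing of low FPKM values gave a depth of 17.75M to 27.65M counted reads per library (M, 1e+06 reads). Thbs1 itself was 24.28, 44.55 and 37.05 FPKM in the libraries labelled aged Thbs1 knockout and 35.56, 41.89 and 36.85 FPKM in the aged controls, a log2 difference of -0.15 (SE 0.26, adjusted p = 0.801, limma with Benjamini-Hochberg adjustment). The targeted transcript was thus not detectably lower under the knockout label. Since the allele is not given, these values cannot settle whether the label holds, and these 3 libraries are called the labelled knockouts for that reason. Marrow stromal markers were high everywhere, with Cxcl12, a chemokine of marrow stroma, between 2873 and 6044 FPKM. B and plasma cell markers, led by the immunoglobulin chain gene Igkc, differed widely: their summed level was 46.2 to 1708 FPKM in the young controls, 38146 to 270634 FPKM in the aged controls and 1080 to 262017 FPKM in the labelled knockouts. The libraries aged control 1, aged control 3 and labelled knockout 2 held the highest of these sums, and immunoglobulin reads lower the FPKM of every other gene in the same library.

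The globin genes lie in 2 clusters and read much the same from copy to copy. In the GRCm38 build, Hba-a1 spans chr11:32283511-32284465 and Hba-a2 chr11:32296489-32297298, both on the plus strand, and Hbb-bt spans chr7:103812524-103813996 on the minus strand. The coding sequences of Hba-a1 and Hba-a2 are identical at 428 of 429 bases, and those of Hbb-bt and Hbb-bs at 443 of 444 bases. Levels of the single copies are therefore uncertain, because the counting could split reads between copies. Alas2 lies on chromosome X at 150547375 to 150570638, Klf1 on chromosome 8 at 84901928 to 84905291 and Slc4a1 on chromosome 11 at 102348824 to 102366203. Car1 and Car2 are neighbours on chromosome 3, at 14766216 to 14808368 and at 14886273 to 14900770.

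Promoters are shown because the globins varied together across libraries, with Alas2 and Klf1 beside them for comparison. Each sequence is the 250 bases before the RefSeq transcription start (GRCm38.p6), 5′ to 3′ on the gene's own strand, and capitals mark matches, on either strand, to the 5 short motifs spelled out after the sequences. They come from chr11:32296242-32296491 (Hba-a2, plus strand), chr7:103813924-103814173 (Hbb-bt, minus strand), chrX:150547167-150547416 (Alas2, plus strand) and chr8:84901732-84901981 (Klf1, plus strand). The gene spans given above are those of GENCODE M21, which places the 5′ end of each of these genes inside its window. The last bases of each window are thus part of the gene in that annotation.
Hba-a2: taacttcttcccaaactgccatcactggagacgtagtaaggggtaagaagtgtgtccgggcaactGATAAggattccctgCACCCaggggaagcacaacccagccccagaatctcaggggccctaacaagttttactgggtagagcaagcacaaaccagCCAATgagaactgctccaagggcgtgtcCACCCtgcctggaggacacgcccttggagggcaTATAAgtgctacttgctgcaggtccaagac
Hbb-bt: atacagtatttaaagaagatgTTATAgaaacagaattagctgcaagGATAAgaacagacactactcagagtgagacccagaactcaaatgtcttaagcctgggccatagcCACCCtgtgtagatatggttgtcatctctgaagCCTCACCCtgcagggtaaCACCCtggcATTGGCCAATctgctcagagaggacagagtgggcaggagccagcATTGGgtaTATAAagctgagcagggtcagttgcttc
Alas2: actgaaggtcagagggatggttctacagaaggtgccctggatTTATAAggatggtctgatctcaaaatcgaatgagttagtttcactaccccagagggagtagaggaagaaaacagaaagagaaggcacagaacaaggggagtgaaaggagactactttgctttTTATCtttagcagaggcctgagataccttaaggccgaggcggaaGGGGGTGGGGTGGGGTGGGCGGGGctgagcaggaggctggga
Klf1: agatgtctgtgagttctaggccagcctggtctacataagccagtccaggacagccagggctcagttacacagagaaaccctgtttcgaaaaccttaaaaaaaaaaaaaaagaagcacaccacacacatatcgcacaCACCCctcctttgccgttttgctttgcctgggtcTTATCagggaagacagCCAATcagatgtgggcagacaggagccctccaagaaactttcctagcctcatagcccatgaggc

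The RefSeq table held promoters for 6 of the 9 genes, 5 of them with values here (Hba-a1, Hba-a2, Hbb-bt, Alas2 and Klf1). GATAA, the core of the motif that GATA factors bind, was in the 250 bases of all 5, and in 22.6% of 32851 promoter windows of the same length. CACCC, the core of motifs bound by Klf1 and related factors, was also in all 5, and in 52.0% of windows. The longer CCNCNCCC, which can overlap CACCC, was in Hbb-bt and Alas2 only and in 45.9% of windows. CCAAT, the CAAT box, was in every one of the 5 but Alas2 (33.8% of windows). The TATA box letters TATAA were in every one but Klf1 (22.8% of windows). All searches covered both strands. In the Hba-a2 promoter the TATAA match begins 30 bases before the start site, and CCAAT begins 91 bases before it. The promoters of Hba-a1 and Hba-a2 hold the same letters at a shift of 3 bases, so 1 of that pair is printed. A match describes the letters only and shows no binding.

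Globin transcripts were present in every library at 19.21 FPKM or more, and no group of libraries stood apart from another. Hba-a1 was 47.77, 49.88 and 158.64 FPKM in the young controls, 69.14, 36.26 and 53.74 FPKM in the aged controls, and 25.25, 69.82 and 30.30 FPKM in the labelled knockouts. Young control 3 was the highest library for this alpha globin, and the 3 groups overlapped. Hba-a2, the second adult alpha globin copy, was 23.19, 32.09 and 122.14 FPKM in the young controls, 30.68, 26.30 and 33.90 FPKM in the aged controls, and 28.51, 138.87 and 23.50 FPKM in the labelled knockouts. Labelled knockout 2 and young control 3 were far above the rest, and the other 7 libraries lay between 23.19 and 33.90 FPKM. Hbb-bt, a beta globin, was 23.02, 31.73 and 105.86 FPKM in the young controls, 42.86, 23.21 and 31.69 FPKM in the aged controls, and 19.21, 154.89 and 20.44 FPKM in the labelled knockouts. The same 2 libraries were the highest for Hbb-bt, and the groups again overlapped.

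**Figure D1:**
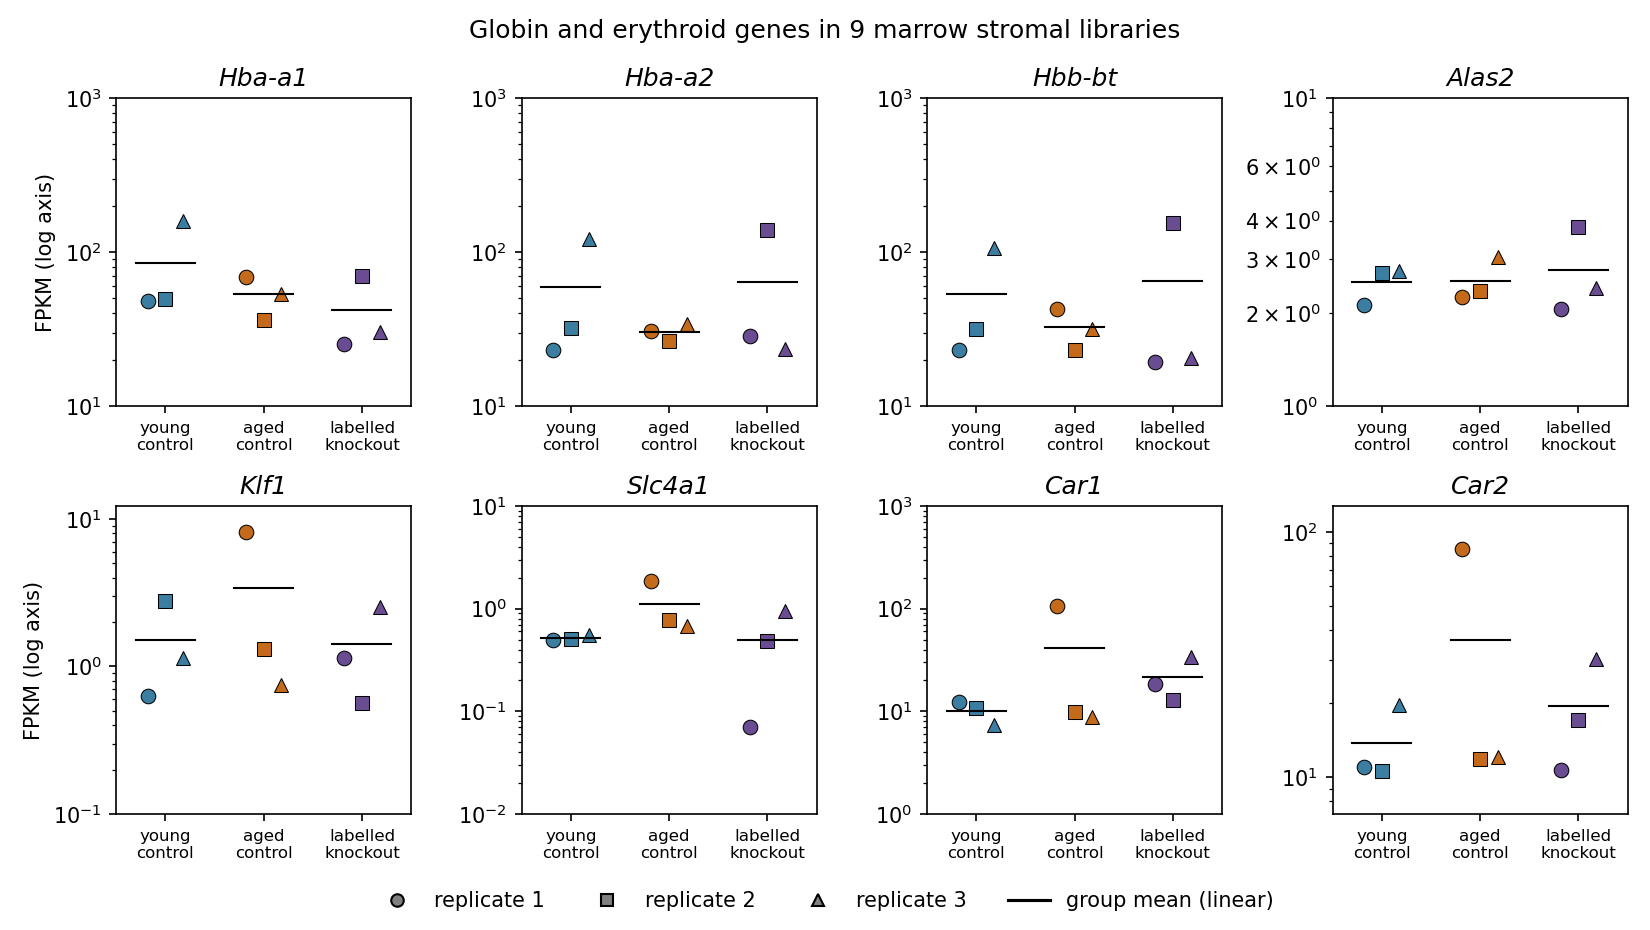
FPKM (log axis) of the 8 chosen genes with values, in each of the 9 libraries, with points coloured by group and a panel for each gene. Young control 3 is the highest library for Hba-a1, and with labelled knockout 2 it stands above the others for Hba-a2 and Hbb-bt. Aged control 1 is high in the Klf1, Slc4a1, Car1 and Car2 panels, and Alas2 stays between 2.07 and 3.80 FPKM.

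Summed over Hba-a1, Hba-a2 and Hbb-bt, globin was 386.64 FPKM in young control 3 and 363.58 FPKM in labelled knockout 2. Hbb-bs, not analysed here, is missing from this sum and from every ratio to it. The sum lay between 72.97 and 142.68 FPKM in the other 7 libraries. In reads, the 3 genes took 53.0 to 285 reads per 1e+06 counted. Young control 3 and labelled knockout 2 come from groups that differ in age and label, while the other 2 libraries of each of those groups lay at 93.98 and 113.7 FPKM (young) and at 72.97 and 74.24 FPKM (labelled knockout). The aged controls were closest together, at 142.68, 85.77 and 119.33 FPKM. Fewer red cells or precursors in a sorted sample and less globin RNA per cell cannot be told apart in bulk samples.

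The balance between the globin copies was not the same in every library. Hba-a1 was 2.06, 1.55 and 1.30 times Hba-a2 in the young controls and 2.25, 1.38 and 1.59 times in the aged controls. In the labelled knockouts the ratio was 0.886, 0.503 and 1.29, so Hba-a2 exceeded Hba-a1 in 2 of these 3 libraries and in none of the 6 controls. The highest of these 3 ratios, 1.29 in labelled knockout 3 from 529 and 337 reads, lay just under the lowest control value, 1.30. The lowest, 0.503, came from labelled knockout 2, the library with the fewest genes above 0 (13503). With 3 libraries a group and 1 mismatched base between the coding sequences, these ratios are given as a description with no test. They were picked out after their values were seen. Hbb-bt relative to the summed alpha globins lay between 0.324 and 0.429 in 8 libraries and was 0.742 in labelled knockout 2.

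Over the 9 libraries, on the log2(FPKM + 1) scale, Hba-a2 and Hbb-bt had a Pearson r of 0.965 (Spearman rho 0.817), and r was 0.682 without the 2 libraries farthest from the median of Hba-a2. Hba-a1 with Hbb-bt gave an r of 0.812 (rho 0.95) and Hba-a1 with Hba-a2 an r of 0.756 (rho 0.783). These are descriptions over libraries that share a depth and a pool of mapped reads, and no test was made of them.

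The other globins were at or close to 0. Of 7 further globin genes in the table, the embryonic genes Hba-x, Hbb-bh1, Hbb-bh2 and Hbb-bh3 and the theta globin Hbq1a were listed at 0 in all 9 libraries. Hbb-y, an embryonic beta-like globin, was listed at 0.16 FPKM in young control 3 and at 0 elsewhere, and Hbq1b reached 0.77 FPKM. The measured globin signal above 1 FPKM was thus adult globin.

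Alas2, the first enzyme of heme synthesis in red cell precursors, was the steadiest of the chosen genes. It was 2.12, 2.70 and 2.74 FPKM in the young controls, 2.26, 2.36 and 3.04 FPKM in the aged controls, and 2.07, 3.80 and 2.42 FPKM in the labelled knockouts, from 100 to 166 reads. Its highest library, labelled knockout 2, is also the highest for Hba-a2 and Hbb-bt, but at 1.84 times its lowest value against 8.06 times for Hbb-bt. Across libraries Alas2 and Hbb-bt had an r of 0.770 (rho 0.70), which fell to 0.42 without young control 3 and labelled knockout 2. The within-group SD of Alas2 on the log2 scale was 0.233, and 16.8% of tested genes had a smaller one.

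Klf1, the erythroid transcription factor, was low except in 1 library. It was 0.63, 2.76 and 1.14 FPKM in the young controls, 8.16, 1.32 and 0.75 FPKM in the aged controls, and 1.15, 0.57 and 2.55 FPKM in the labelled knockouts. Aged control 1 was the highest with 324 reads, and labelled knockout 2, high in Hba-a2 and Hbb-bt, was the lowest with 16 reads (0.57 FPKM, 95% Poisson interval 0.328 to 0.933). These Poisson intervals cover counting error only. Slc4a1, the anion exchanger, was 0.49, 0.51 and 0.55 FPKM in the young controls, 1.84, 0.78 and 0.68 FPKM in the aged controls, and 0.07, 0.48 and 0.94 FPKM in the labelled knockouts. All 3 aged controls were above all 3 young controls for Slc4a1, as they were for 7.02% of the tested genes, which do not include Slc4a1. The share among genes as low as Slc4a1 was not counted. Aged control 1 was the highest at 234 reads and labelled knockout 1 the lowest at 9 reads (0.07 FPKM, 95% Poisson interval 0.0322 to 0.134).

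Both carbonic anhydrases were many times higher in aged control 1 than in the other aged controls. Car1, which hydrates carbon dioxide in red cells, was 12.35, 10.74 and 7.37 FPKM in the young controls, 106.06, 9.83 and 8.81 FPKM in the aged controls, and 18.51, 12.90 and 34.10 FPKM in the labelled knockouts. All 3 labelled knockouts were above all 3 young controls for Car1, as for 4.08% of all tested genes, while the aged controls overlapped with both. Car2, a fast isozyme that osteoclasts also use to acidify bone, was 10.98, 10.63 and 19.74 FPKM in the young controls, 84.94, 11.87 and 12.11 FPKM in the aged controls, and 10.71, 17.19 and 30.40 FPKM in the labelled knockouts. Labelled knockout 3 was second to aged control 1 for both genes, and the 3 groups overlapped for Car2. The summed level of osteoclast markers was 425 FPKM in labelled knockout 3, including 231.24 FPKM of the protease Mmp9, and 85.2 to 211 FPKM in the other 8 libraries. Of 5 tested osteoclast markers, 2 were highest in labelled knockout 3 (Ctsk and Mmp9), 2 in labelled knockout 1 and 1, Acp5, in aged control 1, where the sum was the lowest of all. The fusion gene Ocstamp was listed at 0 in all 9 libraries. The part of osteoclast RNA in the Car2 values of labelled knockout 3 was not tested.

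The library highest in Klf1, Slc4a1, Car1 and Car2 held less globin than young control 3 and labelled knockout 2. Its summed globin of 142.68 FPKM was nonetheless the highest of the aged controls, and its Hba-a1 of 69.14 FPKM was close to the 69.82 FPKM of labelled knockout 2. Immunoglobulin reads lower every FPKM of aged control 1 and labelled knockout 2, which ratios within a library do not share. Car1 and Car2 together were 1.34 times the summed globins in aged control 1, but 0.0701 times in young control 3 and 0.0828 times in labelled knockout 2. The second highest ratio was 0.869, in labelled knockout 3. Over the 9 libraries Hbb-bt and Car1 had an r of -0.172 on the log2 scale, and Hba-a2 and Klf1 an r of -0.321. Both turned without young control 3 and labelled knockout 2, to 0.392 and 0.233 over 7 libraries, so their sign rested on those libraries. Klf1 with Car1 gave an r of 0.829 (rho 0.383) and Car1 with Car2 an r of 0.867 (rho 0.3). Both fell without aged control 1: the r of Klf1 with Car1 was then 0.415 and that of Car1 with Car2 was 0.505, over 8 libraries. Without labelled knockout 3 as well, Car1 with Car2 turned to an r of -0.472, over 7 libraries. Klf1 with Car1 kept its sign, at 0.657, without aged control 1 and young control 2.

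**Figure D2:**
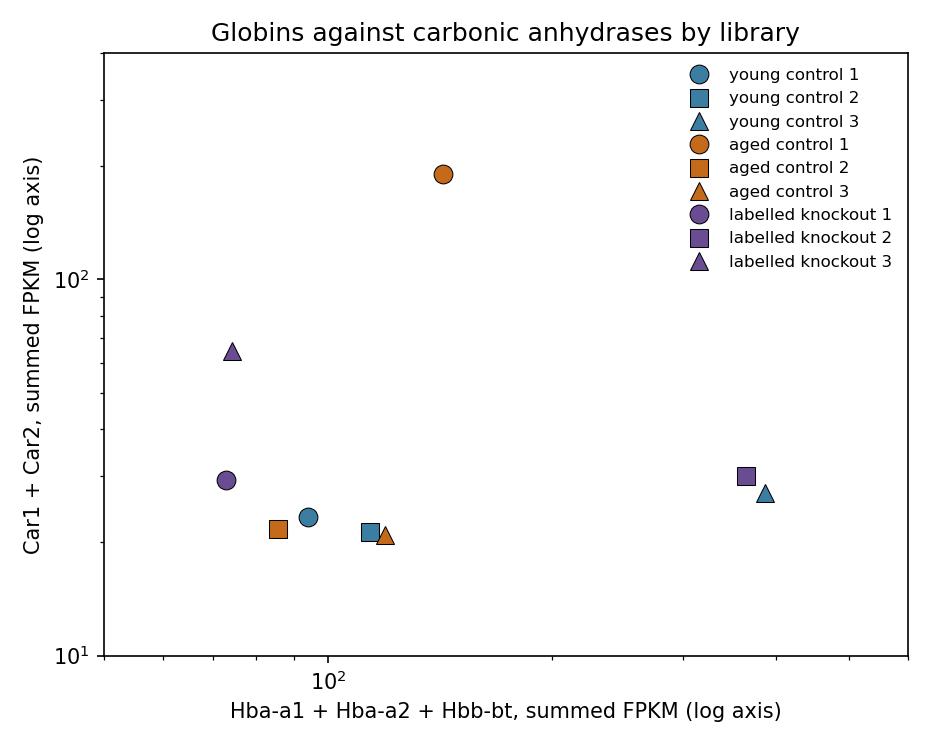
Summed FPKM of Car1 and Car2 (vertical, log axis) against summed FPKM of Hba-a1, Hba-a2 and Hbb-bt (horizontal, log axis), 1 point per library, coloured by group. Young control 3 and labelled knockout 2 lie far to the right at ordinary carbonic anhydrase levels, and aged control 1 lies alone at the top with 191 FPKM of carbonic anhydrase and 142.68 FPKM of globin.

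The first comparison of the design is aged with young control mice, and none of the 7 chosen genes tested passed the threshold in it. At an adjusted p of 0.05, 0 of 7 passed by limma, against 4.04% of all tested genes (2.57% higher and 1.47% lower in aged controls), and 0 of 7 had an unadjusted p under 0.05, against 21.7% of all. Voom on recovered reads, chosen after seeing the data, also called 0 of 7. With a background share this low, a count of 0 among 7 genes does not set them apart from other genes. Limma with array weights, a fit that called 7419 of all tested genes, called Klf1, Car1 and Car2. Mean Hba-a1 was 85.4 ± 63.4 FPKM in the young controls and 53.0 ± 16.5 FPKM in the aged controls (SD, n = 3 each). On the log2(FPKM + 1) scale, which understates changes of low genes, that is -0.49 (SE 0.53, 95% interval -1.68 to 0.70, adjusted p = 0.624 by limma). Hba-a2 went from 59.1 ± 54.7 to 30.3 ± 3.81 FPKM (log2 difference -0.57, interval -2.21 to 1.07) and Hbb-bt from 53.5 ± 45.5 to 32.6 ± 9.86 FPKM (-0.43, interval -2.24 to 1.39). Without young control 3 the differences of Hba-a1, Hba-a2 and Hbb-bt were 0.07, 0.14 and 0.22, so their sign rested on that library.

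Alas2 was 2.52 ± 0.347 FPKM in young and 2.55 ± 0.424 FPKM in aged controls, a log2 difference of 0.01 (95% interval -0.52 to 0.54). Klf1 was 1.51 ± 1.11 and 3.41 ± 4.12 FPKM (log2 difference 0.50, interval -0.87 to 1.87, adjusted p = 0.670 by limma). Car1 was 10.2 ± 2.54 and 41.6 ± 55.9 FPKM (1.04, interval -0.79 to 2.87, adjusted p = 0.491 by limma), and Car2 13.8 ± 5.16 and 36.3 ± 42.1 FPKM (0.78, interval -0.80 to 2.35, adjusted p = 0.555 by limma). Without aged control 1 the differences of Klf1, Car1 and Car2 were -0.23, -0.09 and -0.13. None of the 7 chosen genes tested had its aged and young libraries fully apart, against 44.4% of all tested genes (7.02% with the aged controls higher and 37.4% lower). The median difference of the 7 was 0.01, beside -0.28 for all tested genes.

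The second comparison, labelled knockouts with aged controls, compares mice of the same age that differ by the knockout label, which the Thbs1 values could not check. Here 0 of 7 passed by limma (3.48% of all tested genes did, 1.52% higher and 1.96% lower in the labelled knockouts), 0 of 7 had an unadjusted p under 0.05 (19.8% of all), and voom called 0 of 7. Limma with array weights, which here called 6347 of all tested genes, called Hba-a1, Hbb-bt and Car2. The alpha globins pointed in different directions: Hba-a1 was 41.8 ± 24.4 FPKM in the labelled knockouts (log2 difference -0.43, 95% interval -1.63 to 0.76, adjusted p = 0.700 by limma), and Hba-a2 was 63.6 ± 65.2 FPKM (0.58, interval -1.06 to 2.22, adjusted p = 0.708). Hbb-bt was 64.8 ± 78.0 FPKM (0.32, interval -1.49 to 2.13). Without labelled knockout 2 the differences of Hba-a2 and Hbb-bt were -0.21 and -0.65. Alas2 differed by 0.06 (interval -0.47 to 0.59), Klf1 by -0.54 (interval -1.92 to 0.83), Car1 by -0.09 (interval -1.92 to 1.74) and Car2 by -0.37 (interval -1.95 to 1.21). Without aged control 1 those of Klf1, Car1 and Car2 were 0.18, 1.04 and 0.54. The groups overlapped for all 7 genes, while 23.1% of all tested genes had groups apart (16.6% with the labelled knockouts higher and 6.54% lower). The median difference of the 7 was -0.09, beside 0.07 for all tested genes.

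Labelled knockouts against young controls differ in both age and label, and few genes of any kind were called there. By limma 0 of the 7 chosen genes tested passed (0.025% of all tested genes, 0.00834% higher and 0.0167% lower), 0 of 7 had an unadjusted p under 0.05 (8.63% of all), and voom called 0 of 7. Hba-a1 differed by -0.92 (95% interval -2.11 to 0.27, adjusted p = 0.616 by limma), Hba-a2 by 0.01 (interval -1.63 to 1.65) and Hbb-bt by -0.10 (interval -1.92 to 1.71). Alas2 differed by 0.07 (interval -0.46 to 0.60), Klf1 by -0.04 (interval -1.42 to 1.33) and Car2 by 0.40 (interval -1.17 to 1.98). Car1 was 21.84 ± 10.98 FPKM in the labelled knockouts (0.95, interval -0.88 to 2.78, adjusted p = 0.696 by limma) and was the 1 gene of the 7 with the 2 groups apart, against 17.5% of all tested genes (4.08% with the labelled knockouts higher and 13.4% lower). The median difference of the 7 was 0.01, beside -0.16 for all tested genes. All 3 comparisons share libraries, so their differences are not independent, and the intervals give the sizes that these libraries allow.

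**Figure D3:**
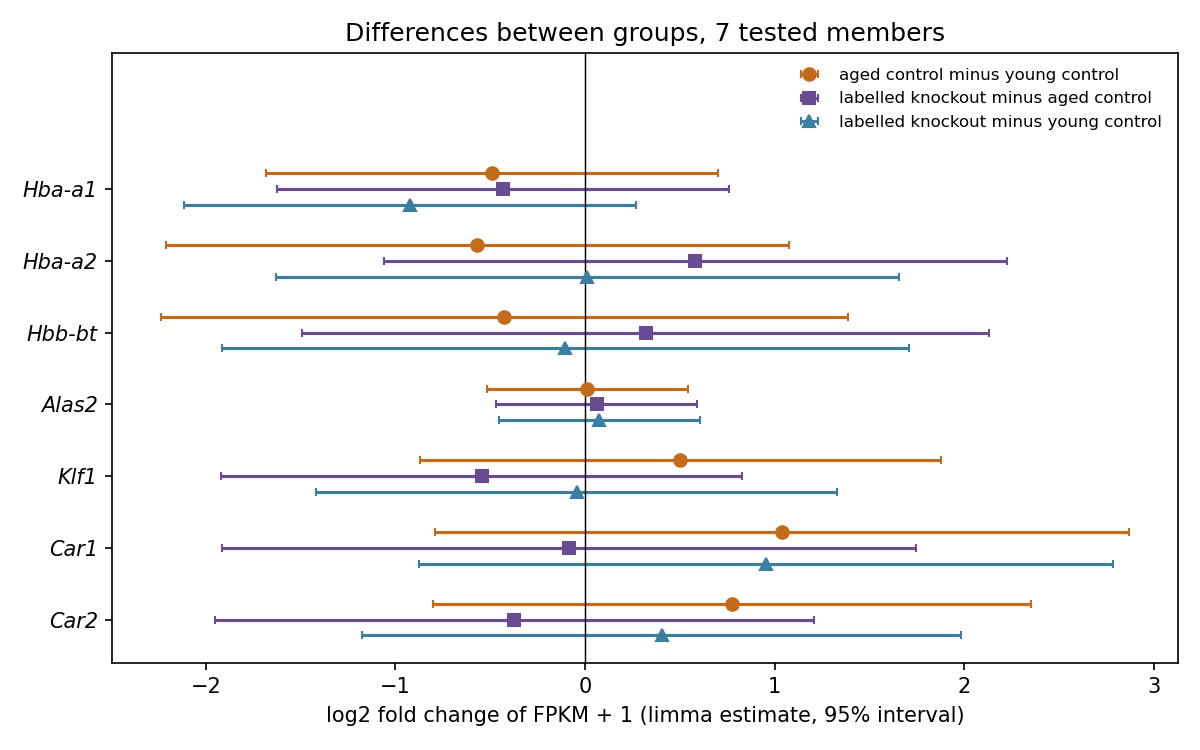
Log2 differences of FPKM + 1, with 95% intervals from limma, of the 7 chosen genes tested in the 3 comparisons. Every interval includes 0, and the interval of Alas2 is narrower than those of the globins and carbonic anhydrases.

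The wide intervals follow the spread within groups. On the log2 scale the within-group SD was 0.761 for Hba-a1, 1.08 for Hba-a2, 1.20 for Hbb-bt, 0.888 for Klf1, 1.21 for Car1 and 1.03 for Car2, while the median over all tested genes was 0.386. Of all tested genes, 97.4% had a smaller within-group SD than Car1, 97.3% a smaller one than Hbb-bt and 88.3% a smaller one than Hba-a1.

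Among other erythroid regulators 3 calls were made, for Nfe2 and Gfi1b. Of 15 genes on that list 8 were tested. In aged against young controls 1 rose and 0 fell (2.57% and 1.47% of all tested genes). The median difference was 1.21, beside -0.28 for all tested genes. The gene that rose was Nfe2, a factor of erythroid cells and megakaryocytes, at 0.72, 0.74 and 0.87 FPKM in the young controls and 21.07, 30.99 and 3.13 FPKM in the aged controls (log2 difference 3.01, SE 0.66, adjusted p = 0.0413 by limma). In labelled knockouts against aged controls 0 rose and 2 fell (1.52% and 1.96% of all tested genes), with a median of -0.86, beside 0.07 for all tested genes. The 2 were Nfe2, at 0.42, 0.00 and 1.31 FPKM (-3.27, SE 0.66, adjusted p = 0.0337 by limma), and Gfi1b, a repressor needed in both lineages, at 0.04, 0.06 and 0.58 FPKM against 10.95, 7.85 and 1.31 FPKM (-2.38, SE 0.53, adjusted p = 0.0467 by limma). Each of these 3 calls was lost in 7 of 9 fits that left out 1 library, and held without aged control 3 and without labelled knockout 2. Over those fits the differences lay between 2.43 and 3.90 for Nfe2 (aged against young), and between -4.16 and -2.68 for Nfe2 and -3.10 and -1.91 for Gfi1b (labelled knockout against aged). Over all alternatives the calls were lost in 11 of 21 for Nfe2 in each comparison and in 12 of 21 for Gfi1b, among them no filter (adjusted p = 0.0994, 0.0909 and 0.108), the replicate block (adjusted p = 0.10, 0.0839 and 0.0902) and voom (adjusted p = 0.244, 0.202 and 0.142), in the order Nfe2 aged against young, Nfe2 and Gfi1b labelled knockout against aged. Voom, on reads and without the pseudocount of 1 FPKM, put the last 2 differences at -6.15 and -5.35. Gata1, the master factor of both lineages, was 0.44, 0.69 and 1.45 FPKM in young controls, 9.15, 8.89 and 1.54 FPKM in aged controls and 0.20, 0.36 and 1.13 FPKM in labelled knockouts. Its aged controls were above both other groups in every library, by as little as 1.54 against 1.45 FPKM. Of all tested genes, 7.02% had the aged controls above the young controls and 6.54% above the labelled knockouts, and the share above both was not counted. Gata1 had adjusted p-values of 0.0892 (against young) and 0.0663 (labelled knockout against aged) by limma. Aged control 2 held nearly as much Gata1 as aged control 1 but had 1.32 FPKM of Klf1 and 9.83 FPKM of Car1.

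Leukocyte markers and B and plasma cell markers were also higher in the aged controls, while the sums of the other blood cell lists overlapped between aged and young controls. Summed over 10 pan-leukocyte markers, among them Cd52 and Cd53, the level was 5.86 to 16.3 FPKM in the young controls, 1140, 972 and 550 FPKM in the aged controls, and 5.09, 604 and 96.6 FPKM in the labelled knockouts. Of 9 tested, 8 rose in aged against young controls and 7 fell in labelled knockouts against aged controls. Of all tested genes, 2.57% rose in the first of these comparisons and 1.96% fell in the second. Megakaryocyte and platelet markers, among them Pf4 and Ppbp, summed to 30.6 to 85.8 FPKM in young controls, 41.6 to 73.3 FPKM in aged controls and 9.07 to 29.5 FPKM in labelled knockouts. Of 4 tested, 1 rose in aged against young controls, Itga2b (log2 difference 3.22, adjusted p = 0.0475 by limma). The others tested, Pf4, Ppbp and Gp9, differed by -0.06, -1.7 and -0.78 and were not called. Itga2b was 0.95, 1.11 and 0.88 FPKM in young controls, 32.34, 41.18 and 3.43 FPKM in aged controls, and 0.54, 2.89 and 1.58 FPKM in labelled knockouts. Neutrophil markers, led by S100a8 and S100a9, summed to 125 to 299 FPKM, 31.3 to 241 FPKM and 28.0 to 60.6 FPKM in the same order, and of 9 tested 1 rose in aged against young controls and 1 fell in labelled knockouts against aged controls. Macrophage markers, led by Lyz2 and Cd14, lay between 17.7 and 41.97 FPKM in all libraries, and 0 of 4 tested passed. Endothelial markers summed to 1.21 to 13.1 FPKM, and the 1 tested, Pecam1, which platelets and leukocytes also carry, rose in aged against young controls (log2 difference 2.78, adjusted p = 0.0195 by limma) and fell in labelled knockouts against aged controls (-2.55, adjusted p = 0.0267). Of the B and plasma cell markers, 5 of 9 tested rose in aged against young controls and 1 fell in labelled knockouts against aged controls. The part of such cells in the levels of Nfe2, Gfi1b, Gata1 and the erythroid genes was not tested. Within each group the library with the highest leukocyte sum also had the highest summed globin: young control 3 (16.3 FPKM of leukocyte markers and 386.64 FPKM of globin), aged control 1 (1140 and 142.68 FPKM) and labelled knockout 2 (604 and 363.58 FPKM). Across groups the order differed, since young control 3 had the most globin of all 9 libraries and less of the leukocyte sum than any aged control. Cd52 made up much of some leukocyte sums, at 442.85 FPKM in aged control 1 and 544.91 FPKM in labelled knockout 2. It was 112.58 FPKM in aged control 2. Gene by gene, 8 of the 9 tested leukocyte markers were highest in aged control 2, which had the lowest summed globin of the aged controls (85.77 FPKM).

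No tested gene of the red cell membrane and skeleton passed the threshold. Of 17 on that list 9 were tested, and 0 rose and 0 fell in any of the 3 comparisons, with medians of -0.04, 0.31 and 0.07 in the order given above. Tmcc2 and Gypc, the membrane genes with the smallest p-values in aged against young controls, had differences of -0.88 and -0.68 (adjusted p = 0.171 and 0.307 by limma). Hemgn, a nuclear protein of erythroid cells, was 0.43, 0.27 and 0.85 FPKM in young controls, 2.95, 0.88 and 1.55 FPKM in aged controls, and 0.15, 0.48 and 1.63 FPKM in labelled knockouts. Epor, the erythropoietin receptor, was 7.9, 9.83 and 5.91 FPKM in young controls, 5.11, 4.33 and 3.72 FPKM in aged controls, and 8.52, 3.87 and 7.86 FPKM in labelled knockouts, so its highest library was young control 2 and not a library high in globin.

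**Figure D4:**
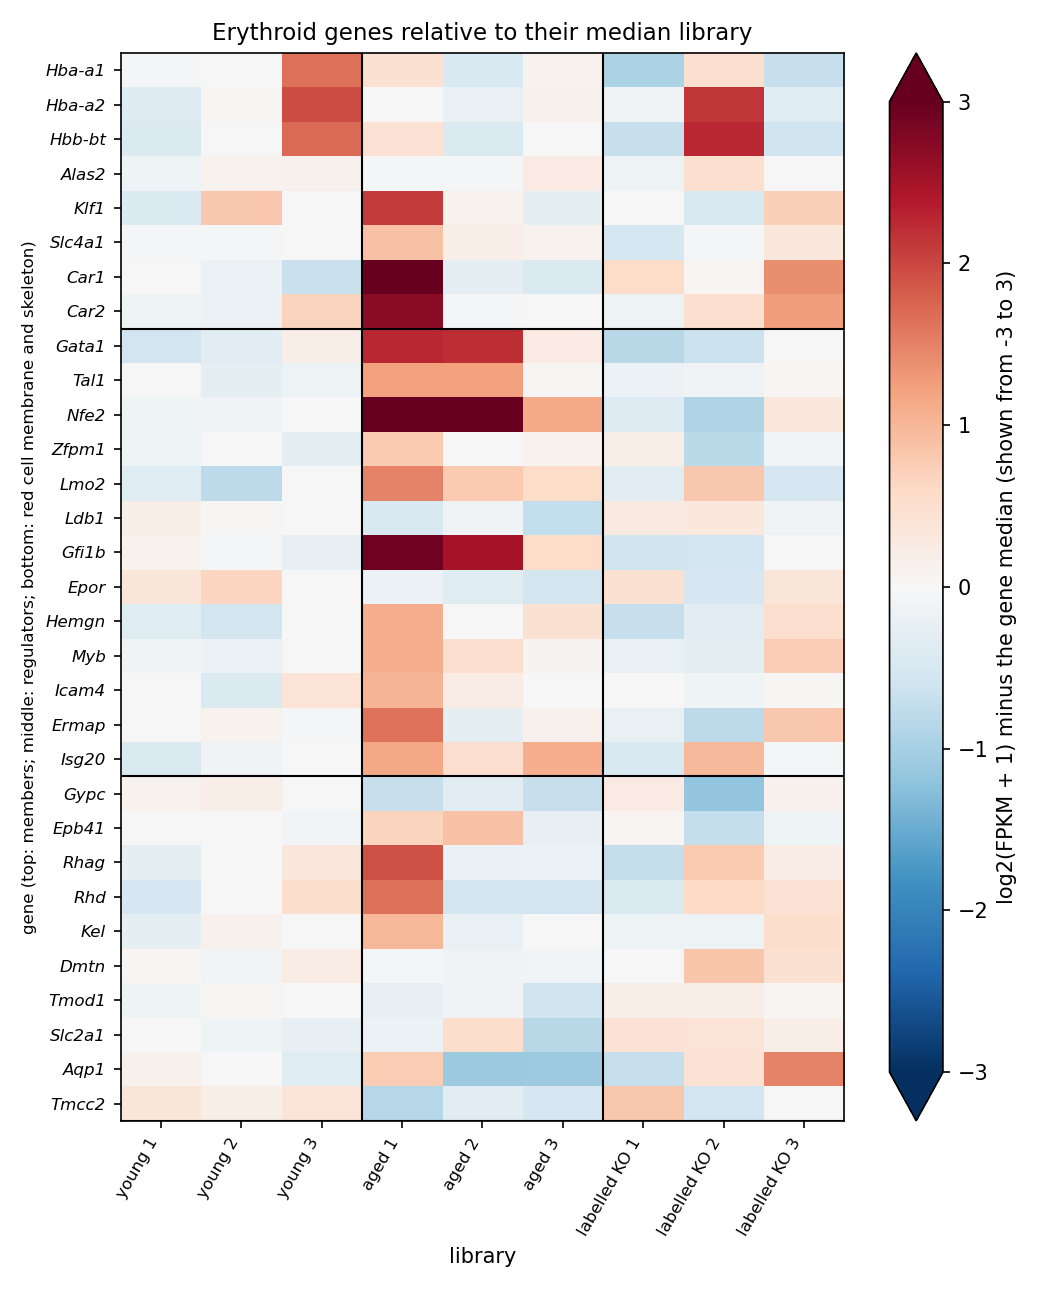
Log2(FPKM + 1) of 31 erythroid genes (8 of the chosen genes, and 13 regulators and 10 of 11 membrane and skeleton genes that reached 1 FPKM in a library), each centred on its median over the 9 libraries. The column of aged control 1 is high for most regulators and for Klf1, Slc4a1, Car1 and Car2, that of young control 3 is high for all 3 globins, and that of labelled knockout 2 for Hba-a2 and Hbb-bt.

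The highest library was counted for each list. Of the 13 regulators that reached 1 FPKM, 10 had their highest value in aged control 1, as had 4 of 11 membrane genes and 4 of the 8 chosen genes. Over all 13834 genes that reached 1 FPKM the share was 4.95%. A gene can reach 1 FPKM through its highest library alone, so tested genes were also counted. Of these, 5 of 8 regulators, 3 of 9 membrane genes and 3 of 7 chosen genes were highest in aged control 1, against 3.96% of all tested genes. Hba-a2, Hbb-bt and Alas2 were highest in labelled knockout 2, as were 17.6% of all tested genes, and Hba-a1 was highest in young control 3, as were 19.5%. Labelled knockout 2 also had the fewest genes above 0 (13503, against up to 18382).

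Genes of heme synthesis and iron uptake, which all cells need to some degree, were tested in full: 16 of 16 were expressed, and 0 rose and 0 fell in any comparison (medians -0.18, 0.08 and -0.05). Tfrc, the transferrin receptor that supplies iron to red cell precursors, was 0.74, 0.52 and 0.63 FPKM in young controls, 3.48, 0.64 and 1.10 FPKM in aged controls, and 0.75, 1.20 and 1.19 FPKM in labelled knockouts. Aged control 1 was again the highest library. Fech, which inserts iron into heme, was lower in all 3 aged controls (23.99 to 24.92 FPKM) than in all 3 young controls (32.2 to 37.56 FPKM), as were 37.4% of all tested genes, with a log2 difference of -0.52 (adjusted p = 0.290 by limma).

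Of 12 genes of heme breakdown and iron storage 10 were tested, and 0 rose and 0 fell in any comparison (medians -0.34, 0.28 and -0.19). Fth1, the ferritin heavy chain, was 5632 ± 1076 FPKM in young controls, 2204 ± 471 FPKM in aged controls and 3850 ± 1454 FPKM in labelled knockouts (n = 3 each, adjusted p = 0.0791 for aged against young by limma). Hmox1, the inducible enzyme that degrades heme, was 21.2 ± 3.53, 15.7 ± 2.74 and 26.0 ± 9.62 FPKM in the same order (n = 3 each). Hp, the hemoglobin-binding protein haptoglobin, was 1607 ± 126, 794 ± 137 and 1539 ± 766 FPKM (n = 3 each). In every library this scavenger was above the summed Hba-a1, Hba-a2 and Hbb-bt, both in FPKM, a sum without Hbb-bs.

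Among the carbonic anhydrases other than Car1 and Car2, 5 of 14 were tested. In aged against young controls 0 were higher and 1 lower (2.57% and 1.47% of all tested genes). In labelled knockouts against aged controls 1 was higher and 0 lower (1.52% and 1.96% of all). No call was made in labelled knockouts against young controls. The called gene was Car3, an isozyme of fat and muscle. It was 56.24, 67.69 and 67.76 FPKM in young controls, 7.68, 8.14 and 3.99 FPKM in aged controls, and 41.78, 17.57 and 96.73 FPKM in labelled knockouts. The 3 aged controls were below all 6 other libraries, while 37.4% of all tested genes had them below the young controls and 16.6% below the labelled knockouts. The share of genes with them below both groups was not counted. The log2 difference was -3.14 for aged against young controls (SE 0.52, adjusted p = 0.0192 by limma) and 2.54 for labelled knockouts against aged controls (SE 0.52, adjusted p = 0.0349 by limma). The first call was lost without any 1 of the young controls or aged control 1, and the second in 8 of 9 fits that left out 1 library, all but that without labelled knockout 2, with differences between -3.30 and -2.86 and between 1.94 and 3.14. Over all 22 alternatives the calls were lost in 7 and 12, among them no filter (adjusted p = 0.0531 and 0.0875), the replicate block (adjusted p = 0.0564 and 0.0868) and voom (adjusted p = 0.0759 and 0.0780). Marrow stromal markers, among them Cxcl12 and Adipoq, summed to 10164 to 10354 FPKM in young controls, 4515 to 6528 FPKM in aged controls and 8311 to 10278 FPKM in labelled knockouts, lowest in the same group as Car3. Of the 12 stromal markers, all tested, 2 fell in aged against young controls (1.47% of all tested genes) and 2 rose in labelled knockouts against aged controls (1.52% of all). The part of stromal cells in the Car3 result was not tested.

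The tested genes whose pattern was most like the mean of the 3 globins over the 9 libraries, on the log2 scale, were Ctla2a (r 0.978), Gm5617 (0.954), Srp14 (0.949), Selenot (0.949) and 2300009A05Rik (0.941). Ctla2a was 5.31 FPKM in young control 3 and 5.32 FPKM in labelled knockout 2, and at most 1.04 FPKM in the other 7. Without the 2 libraries farthest from the median of the globin mean, these r values lay between 0.519 (Gm5617) and 0.822 (Selenot). None of the 5 is on an erythroid list used here. For Car2 the closest were Rhd (0.912), Tfrc (0.899), Rhag (0.894), Top2a (0.874) and Ccnb1 (0.866). Rhd and Rhag encode Rh proteins of the red cell membrane, and Top2a and Ccnb1 are genes of dividing cells. Rhd was 9.23 FPKM in aged control 1 and Rhag 5.34 FPKM, each the highest of the 9 libraries. Without the 2 libraries farthest from the median of Car2 the r was 0.840 for Rhd and 0.802 for Rhag, but 0.276 for Tfrc, -0.04 for Top2a and -0.19 for Ccnb1. These likenesses were picked as the highest among all tested genes and are descriptions over 9 libraries.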

How the data were processed

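RNA from sorted MSCs (2 ng per library, SMART-Seq v4 kit, per the labels' protocols) was sequenced as 9 libraries. FPKM per gene were computed by the authors and deposited as a single table with 2 decimals. FastQC 0.11.5, STAR, edgeR and the GRCm38 (mm10) build are listed in the submitters' processing notes. Which program counted reads, and what it did with those shared by gene copies, is not given in the sources used here. Since the kit is not stranded, reads from genes that overlap cannot be told apart. FPKM divide by length and library total, so abundant immunoglobulin reads lower all other genes.

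Columns were matched to samples by their titles, and 0 columns were left over. Depth was estimated from the steps between low FPKM values multiplied by exonic length (GENCODE M21), searched between 2M and 60M reads; 96.6% to 99.6% of the low values used came out whole within 0.1 read. The limit for a value of 0 is 3 reads. Log2(FPKM + 1) of the 11988 genes with at least 1 FPKM in at least 3 of 9 libraries was fitted with limma 3.58.1 (R 4.3.3) with an intensity trend and group means over all 9 libraries (6 residual degrees of freedom). P-values were two-sided and adjusted over all tested genes by the Benjamini-Hochberg method, with a threshold of 0.05. The fit was also run on simulated data with independent normal noise. Those data held no outlying library, and no result here rests on them. Within-group SDs, ratios, correlations and motif matches were computed in Python 3.11.15 with pandas 2.3.3 and numpy 2.4.6.

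The chosen genes, the gene lists and the alternatives were selected with earlier results of these data known. The text names all 9 chosen genes, a fixed set of erythroid genes, genes among the 4 with the smallest p-values of each list, the 2 highest of each cell type list, and the 5 genes most like the globin mean and Car2. The globin mean was planned over 4 genes and holds 3, since Hbb-bs was not analysed here; nor was Ahsp. Ocstamp, Itga2b, Gp9 and the library ratios were picked out after their values were seen. Single values of some fixed genes are not reported here. Alternatives covered the pseudocount, filters, scaling, weights, a replicate block and leaving out each library, and voom on recovered reads was added after seeing the data.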

Additional observations from a re-analysis of the deposited data

How the results depend on the processing

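None of the chosen genes tested passed in any comparison under 21 of the 22 alternatives, including every fit without 1 library (range 0 to 0). The exception was limma with array weights, which down-weight variable libraries: 3 passed in aged against young controls (Klf1 1.48, Car1 2.75, Car2 2.51), 3 in labelled knockouts against aged controls (Hba-a1 -1.12, Hbb-bt -0.94, Car2 -1.37) and 0 in the third comparison. The estimation of those weights stopped before it converged, and they called 7419, 6347 and 1414 of all tested genes, so the members' counts are to be read against those. Array weights also turned the sign of uncalled differences: to 0.32 for Hba-a1, 0.41 for Hbb-bt and -0.078 for Alas2 (aged against young), to -0.29 for Hba-a2 (labelled knockout against aged), and to -0.30 for Hba-a2, -0.049 for Alas2 and 0.24 for Klf1 (labelled knockout against young). Median-ratio rescaling gave -0.021 for Alas2 (labelled knockout against aged), and 0.11 for Hbb-bt and 0.048 for Klf1 (labelled knockout against young). With labelled knockout 2 also left out it gave -0.49 for Hba-a2, -0.93 for Hbb-bt and -0.34 for Alas2 against aged controls, and -0.73 for Hba-a2, -0.074 for Alas2 and 0.25 for Klf1 against young controls. Leaving out immunoglobulin genes gave -0.11 for Alas2 (against aged) and 0.0038 for Klf1 (against young), quantile normalization 0.21 for Klf1 and voom -0.057 for Hba-a2 (both against young). The cause was not tested. Rescaling by median ratios moved the median of all genes from -0.28, 0.07 and -0.16 to -0.01, -0.04 and 0.01.

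Leaving out 1 library at a time gave these lowest and highest differences. For aged against young controls they were -0.79 and 0.070 for Hba-a1, -1.04 and 0.14 for Hba-a2, -0.86 and 0.22 for Hbb-bt, -0.084 and 0.071 for Alas2, -0.23 and 0.97 for Klf1, -0.087 and 1.64 for Car1, and -0.13 and 1.24 for Car2. For labelled knockouts against aged controls they were -0.87 and -0.15 for Hba-a1, -0.21 and 1.05 for Hba-a2, -0.65 and 0.83 for Hbb-bt, -0.13 and 0.20 for Alas2, -1.01 and 0.18 for Klf1, -0.68 and 1.04 for Car1, and -0.83 and 0.54 for Car2. For labelled knockouts against young controls they were -1.36 and -0.36 for Hba-a1, -0.78 and 0.72 for Hba-a2, -1.07 and 0.54 for Hbb-bt, -0.11 and 0.21 for Alas2, -0.36 and 0.29 for Klf1, 0.59 and 1.26 for Car1, and 0.04 and 0.75 for Car2.

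Libraries of different groups share replicate numbers. Of 9 same-numbered pairs 1 had deviations correlated above 0.1 (-0.288 to 0.302), and 2 of 9 libraries correlated best with their own number, so the numbers were not taken to pair libraries. With a replicate block 0 of the chosen genes passed. Of all tested genes, 102 rose and 18 fell in aged against young controls (308 and 176 without it), 26 and 38 in labelled knockouts against aged controls (182 and 235), and 0 and 2 against young controls (1 and 2). Over the alternatives the calls among all tested genes ran from 17 to 7419, 14 to 6347 and 0 to 1414, beside 484, 417 and 3 as reported. A minimum of 5 FPKM left 5 of the chosen genes tested. Without a filter Slc4a1 differed by 0.43, -0.49 and -0.06 (adjusted p = 0.523, 0.464 and 0.997 by limma). Depth limits Klf1 and Slc4a1 most, at as few as 16 and 9 reads.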
